A study of Mus musculus with 10 samples.

Results

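Interferons are secreted proteins, and those of type I are released by cells on sensing viral or other foreign nucleic acid. Type I interferons bind a receptor of the chains IFNAR1 and IFNAR2, and interferon-gamma binds IFNGR1 and IFNGR2. Both receptors activate JAK kinases and STAT factors, which with IRF factors switch on a large set of interferon-stimulated genes. In blood-forming stem cells, interferon is known to drive quiescent cells into division, and stem cells are known to express part of this gene set without infection. The genes described here were the 35 symbols of a list of interferon receptors, STAT and IRF factors and interferon-stimulated genes. All 35 were among the 24544 genes of the deposited count table, and all 35 passed the filter on low counts, so none is left out of the comparison.

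The libraries were bulk RNA-seq of long-term hematopoietic stem cells from bone marrow of Hoxb5-mCherry mice, a reporter strain, aged 2 to 3 months. Every library was sorted for cells negative for lineage markers, CD48, CD34 and FLK2 and positive for cKIT, SCA1, CD150 and the Hoxb5 reporter. The 5 NEO1+ libraries held cells with neogenin-1 on the surface and the 5 NEO1- libraries held cells without it, each from 250 to 500 cells of 2 pooled mice. The series asks how NEO1 divides the Hoxb5+ stem cells, with its title naming myeloid bias as the trait of interest. No mouse was infected or given interferon according to the labels, so the levels below are those of the sorted cells as taken. The labels do not say whether libraries of a group came from separate sorts, so p-values measure the spread between these libraries only.

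Library totals ran from 21.2 to 38.9 M counts (M, mega). Levels are given in CPM, the counts per mega count after scaling of library sizes by the TMM method, and a count of 0 allows up to 3 counts, which is 0.0699 to 0.144 CPM depending on the library. Neo1 was between 48.6 and 64.8 CPM for 4 of the NEO1+ libraries, against 4.56 to 18.9 CPM over the NEO1- group. In NEO1+ library 4 it was at 12.5 CPM, inside the NEO1- range, and the counts that lead each comparison were also run without both libraries numbered 4. Stem cell markers (8 genes, among them Kit, Ly6a, Slamf1 and Procr) summed to between 1263 and 1388 CPM per NEO1+ library. Per NEO1- library the sum was between 1186 and 1467 CPM, and none of the 8 was at 0 throughout. Among the 8, Hoxb5, the gene of the sorting reporter, did not exceed 4.91 CPM and added little to the sum. It had no count for NEO1- library 3 and reached just 0.22 CPM for NEO1- library 1. Its top NEO1- value (2.43 CPM, library 4) fell narrowly short of its bottom NEO1+ value (2.45 CPM, library 1). Markers of plasmacytoid dendritic cells, which make much type I interferon, included 3 of 6 genes with 0 counts in all libraries, namely Siglech, Cox6a2 and Klk1. Their sum of 101 to 163 CPM came mainly from Bst2 and Tcf4. Bst2, which is itself an interferon-stimulated gene, was at 41.9 to 83.5 CPM and Tcf4 at 48.8 to 104 CPM over all libraries. Ccr9 had counts only in NEO1+ library 4 and in NEO1- libraries 1 and 5. T and NK cell markers (2 of 8 genes at 0 in all libraries, Cd3e and Cd8a) summed to 23.0 to 52.7 CPM. Granulocyte and monocyte markers (14 genes, none at 0 throughout) ranged widely, from 493 to 5262 CPM over the NEO1+ group and from 387 to 3089 CPM over the NEO1- group, and their part in the levels below was not tested. Erythroid markers (3 of 8 genes at 0 in all libraries) summed to between 1.56 and 195 CPM, megakaryocyte markers (5 genes, none at 0 throughout) to between 58.2 and 130 CPM and stromal markers (4 genes, Lepr at 0 in all libraries) to between 0 and 38.2 CPM.

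All 4 receptor chains were detected in every library, while most interferon ligand genes had no count. Of 8 interferon ligand genes (Ifnb1, Ifng, Ifne, Ifnk, Ifna4, Ifna2, Ifnl2 and Ifnl3), 6 had 0 counts in every library, which allows up to the floor given above. Ifnb1 had 1 count in 1 library, and Ifnk had 73 counts, all in NEO1- library 5. Ifngr1, the ligand-binding chain of the interferon-gamma receptor, was at 151, 153, 147, 114 and 149 CPM in NEO1+ libraries (1 to 5, in that order throughout) and at 94.8, 117, 200, 116 and 117 CPM in NEO1- libraries. The groups overlapped, with the highest and the lowest value both in the NEO1- group. In bulk samples, fewer cells that express a gene and less RNA of it per cell cannot be told apart. The log2 fold change of NEO1+ over NEO1- was 0.15 (95% interval -0.25 to 0.54). Ifngr2, its signalling chain, averaged 23.8 ± 6.93 CPM over the NEO1+ group and 25.9 ± 5.95 CPM over the NEO1- group (SD, n = 5 each), and its fold change on the log2 scale was -0.13 (-0.77 to 0.51). Ifnar1 was at 84.7, 53.6, 64.8, 67.4 and 59.1 CPM for NEO1+ and at 52.4, 55.9, 59.4, 69.6 and 63.6 CPM in NEO1- libraries, a log2 fold change of 0.13 (-0.23 to 0.49). Ifnar2 averaged 77.7 ± 13.2 and 80.7 ± 7.05 CPM (SD, n = 5 each), and its fold change on the log2 scale was -0.06 (-0.39 to 0.28). For all 4 chains the intervals leave out a change of 1 log2 unit in either direction. All 4 chains had an adjusted p of at least 0.988 by edgeR's quasi-likelihood test, with Benjamini-Hochberg adjustment over 12203 genes. Ifnar2, Ifnar1 and Ifngr2 lie near each other on chromosome 16 (GRCm38), at 91372783 to 91405589, 91485238 to 91507441 and 91547072 to 91565623.

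The 4 factors that carry the signal overlapped between the groups. Irf1, a factor induced by interferon-gamma, was at 131, 150, 155, 186 and 235 CPM for NEO1+ and at 124, 159, 165, 153 and 212 CPM for NEO1- libraries. In both groups the library numbered 5 was highest. Irf9 and Stat2, which take part in the factor complex that acts on type I interferon targets, were at 111 ± 19.5 and 118 ± 28.7 CPM (Irf9) and at 49.5 ± 13.8 and 53.1 ± 20.6 CPM (Stat2; NEO1+ first, SD, n = 5 each). Irf7, which amplifies interferon production, was at 26.5 ± 12.1 and 28.4 ± 10.4 CPM. The 4 log2 fold changes lay between -0.10 and 0.08, and the widest 95% interval was that of Irf7 (-0.88 to 0.69).

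Levels can be set against other genes once divided by exonic length, here in CPM per kb of the exons annotated for each gene. Of the 35 genes, 32 lay above the median of 12009 tested genes with a known length (5.50 CPM per kb), 17 above the 75th percentile and 10 above the 90th. The interferon-induced transmembrane proteins, which hinder the fusion of viruses with membranes, stood apart at the top. Ifitm3 was at 744 ± 112, Ifitm1 at 617 ± 90.2 and Ifitm2 at 499.8 ± 60.0 CPM per kb (mean over 10 libraries, SD). These 3 genes ranked in this order in 10 of 10 libraries, and Ifitm3 lay at the 99.9th percentile of tested genes. The next was Lgals3bp, a secreted glycoprotein, at 100.2 ± 18.8 CPM per kb, followed by Igtp at 78.3 ± 21.9 and Bst2, which tethers virus particles to the cell surface, at 73.0 ± 12.9. Only 5 of the 34 neighbouring pairs in this order were separated by more than the larger SD of the pair, so most ranks further down are not resolved. At the low end were Ifit3 at 5.47 ± 5.41, Parp14 at 2.82 ± 1.24 and Mx1 at 0.84 ± 1.66 CPM per kb. Isg15, a ubiquitin-like protein often read as a gauge of interferon exposure, was near the median gene at 5.63 ± 2.12 CPM per kb, and Usp18, the protease that removes it and damps the receptor, was at 7.47 ± 3.73.

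**Figure D1:**
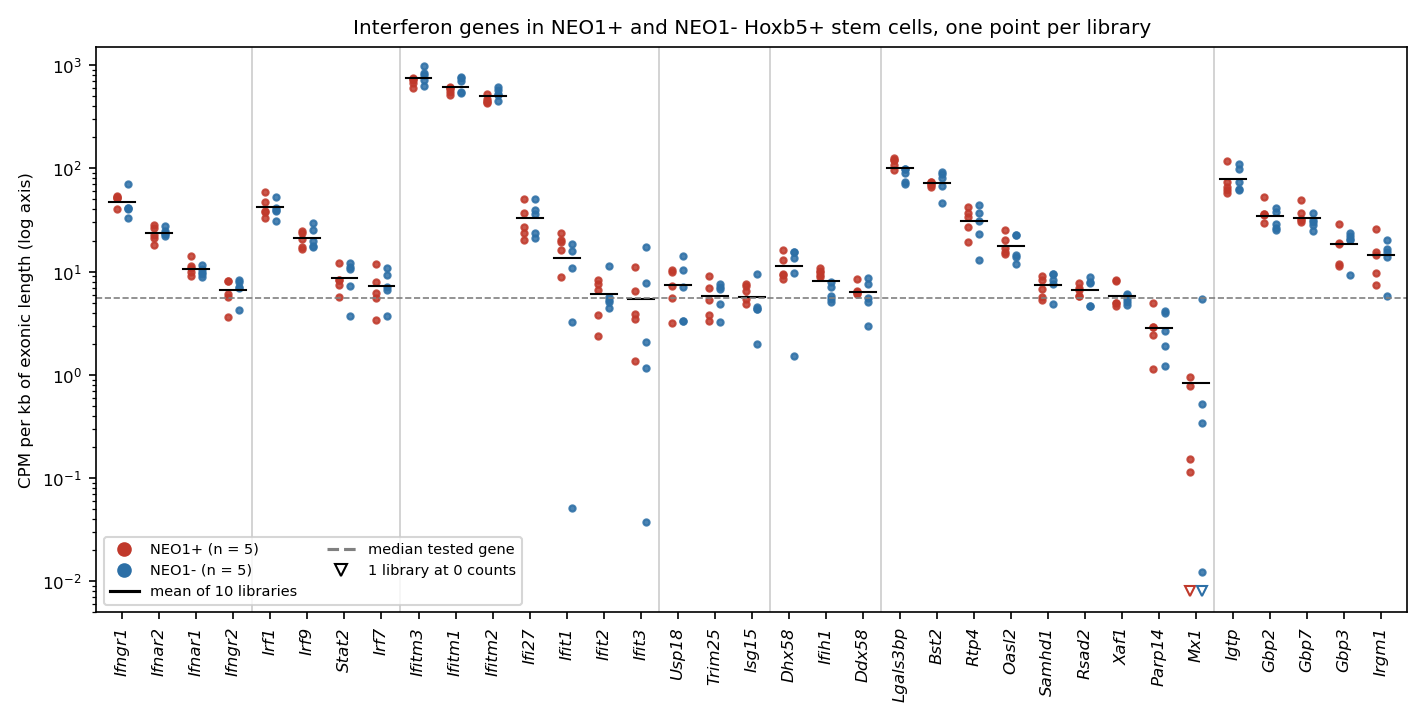
Level of each of the 35 genes in CPM per kb of exonic length (log axis), with 1 point per library, NEO1+ in red and NEO1- in blue, ordered by role; black bars are means of 10 libraries and the dashed line is the median tested gene. The 3 Ifitm genes lie above all others and Mx1 below, with 1 library of each group at 0 counts for Mx1.

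Ifit1, Ifit3 and Mx1 each ranged from near or at 0 in some libraries to far higher values in others. Ifit1, an RNA-binding inhibitor of viral translation, was at 53.5, 23.4, 42.9, 51.5 and 63.1 CPM in NEO1+ libraries and at 49.5, 41.7, 0.14, 28.5 and 8.70 CPM in NEO1- libraries. NEO1- library 3 held 4 counts of Ifit1 and NEO1- library 5 was also below the NEO1+ range, while the other NEO1- libraries were within it. The log2 fold change of 0.87 had a 95% interval of -0.85 to 2.58. Ifit3, its partner, ran from 2.35 to 19.3 CPM in NEO1+ and from 0.07 to 30.4 CPM in NEO1- libraries. Ifit3 shares near-identical sequence with Ifit3b, so its counts are uncertain. Mx1, a GTPase against influenza viruses that is disrupted in many inbred strains, was at 0.43, 0, 3.64, 2.98 and 0.58 CPM in NEO1+ libraries and at 20.7, 0.05, 2.00, 1.31 and 0 CPM in NEO1- libraries. A single library, NEO1- library 1, held most of its signal. In libraries of 250 to 500 cells without molecular identifiers, reads of 1 transcript copied by PCR cannot be told from reads of many transcripts.

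Between NEO1+ and NEO1- cells no interferon gene of the set passed the adjusted test of edgeR, and the signs of their differences were mixed. Of the 35 genes, 16 had a log2 fold change above 0 and 19 below, with a median of -0.06, beside 6228 above and 5975 below of 12203 tested genes with a median of 0.01. The fold changes of 27 of the 35 genes were within 0.2 log2 units of 0, and their median SE was 0.26. No gene of the 35 passed an edgeR adjusted p of 0.05, and over all genes the share was 0.00% (0 of 12203). At an unadjusted p under 0.05, 2 of 35 genes were higher in NEO1+ and 0 lower, against 6.60% of all tested genes in either direction, 3.11% higher and 3.49% lower. The count among the interferon genes is thus close to that of genes in general. Without both libraries numbered 4, 0 of 35 passed edgeR's adjusted threshold. There, 3 had an unadjusted p under 0.05, against 6.33% of all tested genes in that fit, with Ifih1 and Lgals3bp above 0 and Ifitm2 below (log2 fold change -0.26, p 0.0398 by edgeR). DESeq2 called 1 of the 35 genes, Ifih1, higher in NEO1+ by its adjusted p, where it called 0.616% of all genes in that direction.

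**Figure D2:**
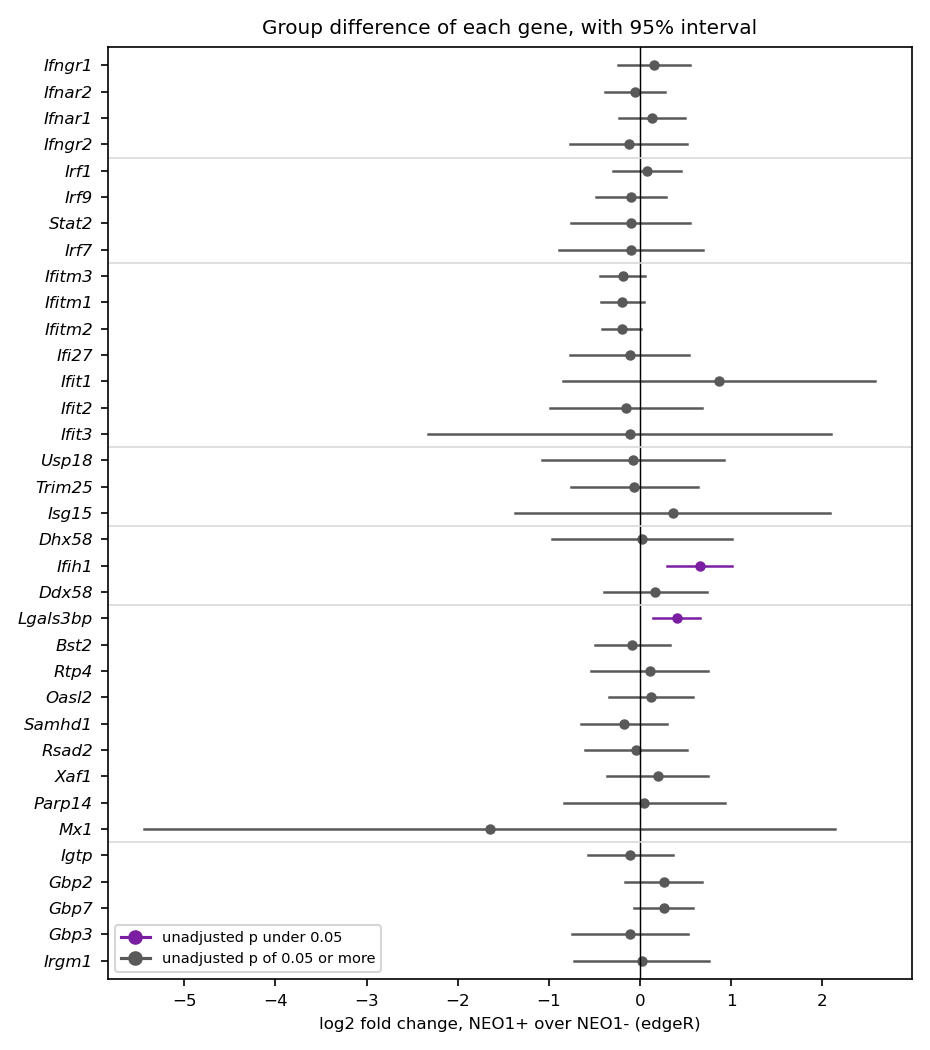
Log2 fold change of NEO1+ over NEO1- by edgeR for the 35 genes, with 95% intervals, ordered by role as in the plot of levels. Ifih1 and Lgals3bp are the 2 genes with an unadjusted p under 0.05, and the intervals of the other 33 include 0.

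The smallest p-value was that of Ifih1, which encodes MDA5, a cytoplasmic sensor of long double-stranded RNA. Ifih1 was at 73.1, 75.4, 88.9, 81.8 and 83.2 CPM in NEO1+ libraries and at 58.2, 41.2, 65.0, 46.9 and 44.7 CPM in the NEO1- group. The values of the groups stayed apart, as was the case for 1 of the 35 genes and for 1.35% of all tested genes in this direction (1.13% in the other). Its log2 fold change was 0.65 (SE 0.17, unadjusted p 0.00176, edgeR adjusted p 0.368). DESeq2 gave Ifih1 an adjusted p of 0.0225. Without any 1 library its edgeR adjusted p ran from 0.327 to 0.741, and over all 20 alternatives its log2 fold change lay between 0.58 and 0.79. The other sensors of the same family had smaller values. Ddx58, which encodes RIG-I, averaged 47.3 ± 6.78 CPM over NEO1+ and 42.1 ± 15.8 CPM over NEO1- libraries, a log2 fold change of 0.17 (-0.40 to 0.73), and Dhx58, which encodes the regulator LGP2, was at 37.0 ± 10.8 and 36.5 ± 19.3 CPM (SD, n = 5 each). The difference between Ifih1 and these genes was not tested. Ifih1 lies on chromosome 2 at 62595798 to 62646255 (GRCm38, minus strand).

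Lgals3bp was at 273, 342, 307, 355 and 346 CPM in NEO1+ libraries and at 279, 211, 201, 258 and 280 CPM in NEO1- libraries. The groups overlapped, since NEO1+ library 1 lay below the 2 highest NEO1- libraries. The log2 fold change was 0.40 (SE 0.12, unadjusted p 0.00525, edgeR adjusted p 0.483), and DESeq2 gave an adjusted p of 0.101. Some other measures moved with the same groups. Proliferation markers (6 genes, Mki67 and Top2a among them, a list added after the data were seen) summed to between 191 and 350 CPM per NEO1+ library and between 49.7 and 143 CPM per NEO1- library without overlap. Endothelial markers (4 genes, Cdh5 at 0 in all libraries) summed to between 81.4 and 90.9 CPM per NEO1+ library and between 40.7 and 83.3 CPM per NEO1- library. The part of both lists in the values of Ifih1 and Lgals3bp was not tested. NEO1+ libraries held 12800 to 13808 detected genes and NEO1- libraries 11477 to 13147. With that number as a covariate the log2 fold changes were 0.79 for Ifih1 and 0.33 for Lgals3bp, both with an edgeR adjusted p of 0.9998. The unadjusted p-values by edgeR in that fit were 0.0080 for Ifih1 and 0.0842 for Lgals3bp.

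The abundant Ifitm genes had log2 fold changes below 0 that passed no adjusted threshold. Ifitm1 was at 673, 646, 561, 659 and 604 CPM for NEO1+ libraries and at 835, 817, 595, 769 and 587 CPM in NEO1- libraries. Ifitm2 was at 305 ± 25.0 and 350.1 ± 39.6 CPM, and Ifitm3 at 471 ± 41.0 and 537 ± 92.5 CPM (NEO1+ first, SD, n = 5 each). The groups overlapped for all 3 genes. The log2 fold changes were -0.20 for Ifitm1, -0.20 for Ifitm2 and -0.19 for Ifitm3, with 95% intervals whose lower ends were -0.43, -0.41 and -0.44 and whose upper ends were 0.04, 0.01 and 0.06. Their unadjusted p-values were 0.0957, 0.0650 and 0.122 by edgeR and 0.0772, 0.0410 and 0.101 by DESeq2. The adjusted p was at least 0.792 by edgeR and at least 0.482 by DESeq2. Their signs were the same under all 20 alternatives. The 3 genes lie in a cluster on chromosome 7 (GRCm38, 140954837 to 141010770), and reads could be shared between these similar copies. Annotated exons of Ifitm2 also share 268 bases, 40.9% of its exonic length, with a predicted gene on the same strand.

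**Figure D3:**
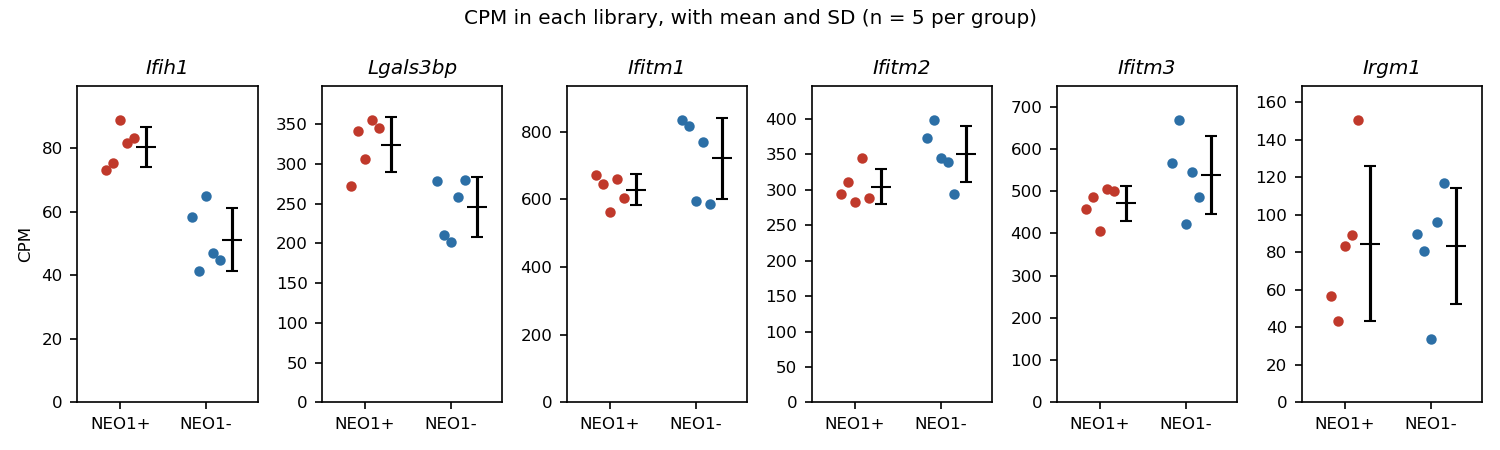
CPM of 6 genes in each library, with the mean and SD of each group (n = 5) beside the points, on axes that start at 0. Ifih1 separates the groups, Lgals3bp and the Ifitm genes overlap, and Irgm1 has 1 NEO1+ library at 151 CPM.

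The remaining antiviral genes also overlapped between the groups. Oasl2, an oligoadenylate synthetase relative, averaged 118 ± 27.9 CPM over NEO1+ and 109 ± 32.3 CPM over NEO1- libraries. Rsad2, which encodes viperin, was at 28.5 ± 3.72 and 29.5 ± 8.67 CPM, Bst2 at 64.0 ± 3.20 and 67.8 ± 16.9 CPM, and Samhd1, which lowers the nucleotide pool that viruses copy from, at 64.4 ± 14.9 and 72.8 ± 17.5 CPM (SD, n = 5 each). The SD of Bst2 was smaller among NEO1+ than among NEO1- libraries, where NEO1- library 1 was at 41.9 CPM and NEO1- library 2 at 83.5 CPM; the difference in spread was not tested. Ifi27, Ifit2, Isg15, Usp18, Trim25, Xaf1, Parp14 and Rtp4 had log2 fold changes from -0.15 to 0.36, all with an edgeR adjusted p of at least 0.994.

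Other genes of the pathway were read from a further list. From a list of 102 further interferon genes, 84 were tested, 48 of them with a log2 fold change above 0 and 36 below, at a median of 0.04. None passed an edgeR adjusted p of 0.05, and 4 had an unadjusted p under 0.05, 2 in each direction, beside the 6.60% of all tested genes (3.11% higher and 3.49% lower). Ifi47, an interferon-inducible GTPase outside the 35 and outside the GTPase lists used below, was at 128, 131, 128, 126 and 194 CPM for NEO1+ and at 96.0, 97.3, 115, 112 and 107 CPM in NEO1- libraries, without overlap, as for 1.35% of all tested genes in this direction (log2 fold change 0.42, SE 0.14, edgeR adjusted p 0.553). Slfn8, of the Schlafen family, averaged 54.4 ± 8.37 and 32.8 ± 8.75 CPM (NEO1+ first, log2 fold change 0.73, SE 0.22, edgeR adjusted p 0.483), and with the number of detected genes as a covariate its log2 fold change was 0.33. Below 0 were Parp9, with means of 63.5 ± 12.1 and 93.1 ± 15.4 CPM (log2 fold change -0.55, SE 0.18, edgeR adjusted p 0.546), and Ifi35, with means of 64.0 ± 7.96 and 85.2 ± 19.9 CPM (-0.41, SE 0.18, edgeR adjusted p 0.705; SD, n = 5 each). Jak1, the kinase that both receptors use, was at 303 ± 47.4 and 334 ± 74.1 CPM. The 5 negative regulators of this list (Socs1, Socs3, Ptpn6, Ptpn2 and Pias1) had log2 fold changes above 0, as did 6228 of 12203 tested genes. Their median was 0.10 with none at an unadjusted p under 0.05 by edgeR, and with detected genes as a covariate Socs1 and Ptpn6 were below 0. Usp18, the gene of the 35 that damps the receptor, was at -0.08.

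The interferon-inducible GTPases, which attack the vacuoles of intracellular microbes and respond strongly to interferon-gamma, had many of their highest values in the libraries numbered 5. Igtp was at 151, 126, 116, 133 and 237 CPM in NEO1+ libraries and at 124, 128, 199, 148 and 222 CPM in NEO1- libraries. Irgm1 was at 56.7, 43.4, 83.3, 89.2 and 151 CPM for NEO1+ and at 89.7, 81.0, 33.9, 96.2 and 117 CPM in NEO1- libraries. In both genes the library numbered 5 was the highest of its group. Gbp7 was at 179, 169, 183, 209 and 276 CPM in NEO1+ libraries, with library 5 again highest, and at 177, 159, 138, 208 and 169 CPM in NEO1- libraries, where library 4 was highest. Gbp2 was at 134 CPM and Gbp3 at 95.4 CPM in NEO1+ library 5, against 63.1 to 95.5 CPM and 30.4 to 77.3 CPM in the 8 libraries not numbered 5. NEO1+ library 5 had the highest value of all 10 libraries for 5 of 5 of these GTPases.

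The other list held 10 more tested GTPases (Gbp4, Gbp5, Gbp6, Gbp8, Gbp9, Gbp10, Irgm2, Iigp1, Tgtp1 and Tgtp2). Over both lists NEO1+ library 5 was highest for 12 of 15 GTPases, whereas it was highest for 6.84% of all tested genes. Relative to the median of the 8 libraries not numbered 5, the 15 genes stood at 1.52 to 3.12 times (median 1.98) in NEO1+ library 5 and at 0.93 to 2.46 times (median 1.47) in NEO1- library 5. Both libraries were above that median for 13 of 15 GTPases and for 27.0% of all tested genes; this comparison was chosen after the values were seen. Ifi47, which is not among the 15, was at 1.61 times that median in NEO1+ library 5 and at 0.89 times in NEO1- library 5. Over the 35 genes of the set, both libraries were above that median for 14 (40.0%), 4 of them GTPases. Oasl2 (162 and 144 CPM, NEO1+ first) and Stat2 (71.4 and 72.3 CPM) also had their 2 highest values in these libraries. The IFIT genes of the set did not move as one there: Ifit1 had its highest value of all libraries in NEO1+ library 5, at 63.1 CPM, and Ifit2 its lowest, at 9.29 CPM. In NEO1- library 5, Ifit1 was at 8.70 CPM and Ifit2 at 20.7 CPM. The labels do not say whether the number 5 marks shared mice, a shared sort or a shared day. The summed markers in these 2 libraries lay within the range of the others for T and NK cells (38.4 and 25.1 CPM) and for granulocytes and monocytes (606 and 1142 CPM). Cd3e and Cd8a were at 0 in all libraries. Cd4 was highest in NEO1- library 5, at 2.88 CPM against at most 0.75 CPM elsewhere. Lck was at 8.59 and 12.2 CPM in the libraries numbered 5 (NEO1+ first), against 0 to 12.9 CPM in the other 8, and Klrb1c at 22.7 and 0.89 CPM. Megakaryocyte markers (5 genes) were highest of all libraries in NEO1+ library 5, at 130 CPM, and highest of the NEO1- group in library 5, at 105 CPM, against 58.2 to 109 CPM in the other 8. The stem cell sum was also highest of its group in both, at 1388 and 1467 CPM. The part of these lists in the GTPase values was not tested. Tgtp1 and Tgtp2 are near-identical copies and the Gbp genes are related copies. Reads could be shared, so their counts cannot be taken as independent of each other. Exons of Igtp also share 162 bases (8.01% of its exonic length) with Irgm2, and exons of Gbp7 share 637 bases (11.3%) with a processed pseudogene.

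The sign of the median fold change of these genes depended on whether NEO1+ library 5 was kept. That library was left out after it was seen to be highest for 12 of 15 GTPases. Leaving it out was bound to lower their fold changes. NEO1- library 5, where these genes also stood high (median 1.47 times, as given above), was kept in. A fit without both was not run, so no conclusion on direction is drawn. With all libraries, 11 of 15 GTPases had a log2 fold change above 0 (median 0.16). Without NEO1+ library 5, 6 of the 16 then tested did (median -0.07). For the 5 GTPases of the set, the median was 0.02 with and -0.30 without that library. By edgeR's adjusted p none passed 0.05, with or without it. After centring each group, Gbp3 and Gbp7 had a rank correlation of 0.99 over the 10 libraries, Gbp3 and Irgm1 of 0.95 and Stat2 and Igtp of 0.94. The median was 0.36 over the 10 pairs of GTPases of the set and 0.13 over all 595 pairs of the 35 genes, so not every GTPase pair varied together. All pairs share the same libraries and their depth, so these are descriptions.

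**Figure D4:**
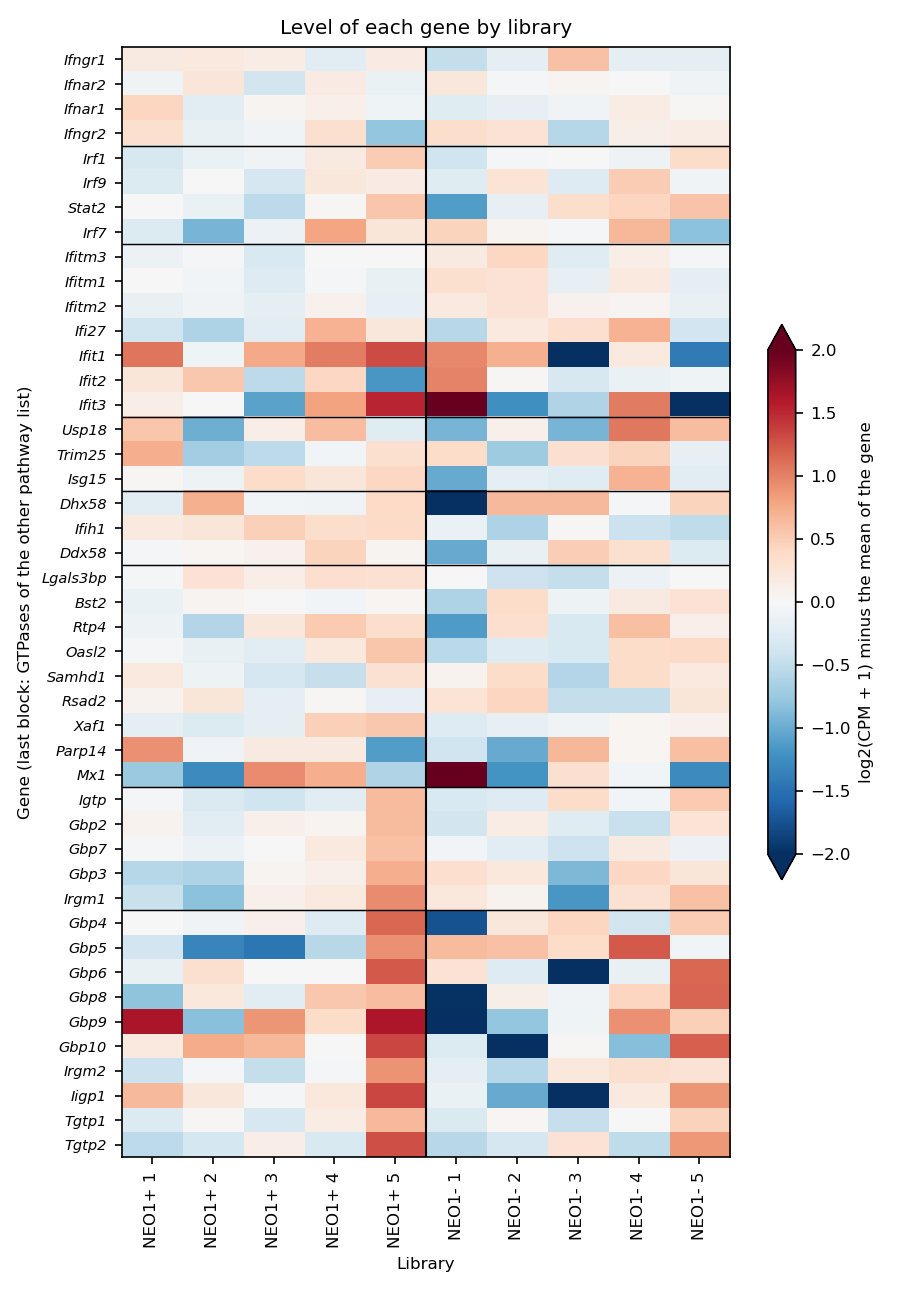
Level of each gene in each library as log2(CPM + 1) minus the mean of the gene, red above and blue below, for the 35 genes by role and, in the last block, 10 further GTPases; NEO1+ libraries are left of the line. Most GTPases are red in both libraries numbered 5, Gbp7 and Gbp5 being pale blue in NEO1- library 5, and Ifit1, Ifit3 and Mx1 are uneven within both groups.

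Promoter sequences were read for letters of the elements through which interferon acts, to show what the GTPases and other genes share beyond their names. The interferon-stimulated response element (ISRE) binds the complex that holds IRF9 and STAT2, and other IRF factors, and was searched as GAAA, any 2 bases and GAAA again, on both strands (TTTC, any 2 bases and TTTC on the other). The gamma-activated site (GAS) is an element of the response to interferon-gamma and was searched as TTCNNNGAA, which reads the same on both strands. Matches of both kinds may share letters. RefSeq promoter windows (GRCm38.p6, 250 bases before to 50 after each start) were given for 29 of the 35 genes, in 33 windows, and not for Ifi27, Usp18, Dhx58, Mx1, Parp14 and Rtp4. ISRE-like letters were in 15 of 29 genes (51.7%), compared with 3.85% of the 9579 tested genes and 3.99% of all 27025 genes with windows of this length. GAS-like letters were in 9 of 29 (31.0%), compared with 8.42% of tested and 9.55% of all genes. All 5 GTPases carried ISRE-like letters, beginning 24 to 59 bases before the start, and 0 of 4 receptor genes did. The stretches below are the 90 bases before the start of each GTPase, shown because all 5 were highest in NEO1+ library 5, with the ISRE-like letters in capitals.
Gbp2, chr3:142620573-142620662, plus strand: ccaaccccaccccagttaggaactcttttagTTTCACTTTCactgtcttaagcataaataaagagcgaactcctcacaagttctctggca
Gbp3, chr3:142559954-142560043, plus strand: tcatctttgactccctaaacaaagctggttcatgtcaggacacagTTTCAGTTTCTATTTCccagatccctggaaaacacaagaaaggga
Gbp7, chr3:142530246-142530335, plus strand: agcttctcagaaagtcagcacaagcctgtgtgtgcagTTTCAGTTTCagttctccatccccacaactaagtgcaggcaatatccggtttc
Igtp, chr11:58199466-58199555, plus strand: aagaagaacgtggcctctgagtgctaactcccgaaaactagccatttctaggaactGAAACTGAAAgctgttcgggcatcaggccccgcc
Irgm1, chr11:48871421-48871510, minus strand: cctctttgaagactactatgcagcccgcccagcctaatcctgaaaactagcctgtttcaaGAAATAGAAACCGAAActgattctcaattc

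Gbp3 and Irgm1 each hold 2 overlapping matches in these stretches, and the other 3 hold 1. For comparison, Isg15 and Ifit1 are shown as type I interferon targets, with 3 and 2 matches, and Ifitm1 beside Ifitm2 because both were abundant in every library and differ in these letters, with 0 and 1 match. The Ifitm1 and Irgm1 stretches precede RefSeq starts that lie inside the GENCODE vM21 spans (140967221 to 140969825 for Ifitm1, 48861968 to 48871683 for Irgm1). No window was placed at the GENCODE starts of these 2 genes, so the difference between Ifitm1 and Ifitm2 depends on the start used. For Ifih1, the gene with the smallest p between the groups, the match lies after the start, and only its 28 bases are shown. These matches describe sequence and do not show binding.
Isg15, chr4:156200819-156200908, minus strand: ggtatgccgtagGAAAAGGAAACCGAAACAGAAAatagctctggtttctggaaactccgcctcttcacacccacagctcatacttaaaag
Ifit1, chr19:34640779-34640888, plus strand: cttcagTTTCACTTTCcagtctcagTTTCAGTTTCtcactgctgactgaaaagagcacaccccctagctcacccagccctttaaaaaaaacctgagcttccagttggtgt
Ifitm1, chr7:140967986-140968075, plus strand: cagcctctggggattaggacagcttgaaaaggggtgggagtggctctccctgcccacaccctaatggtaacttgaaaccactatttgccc
Ifitm2, chr7:140955962-140956051, minus strand: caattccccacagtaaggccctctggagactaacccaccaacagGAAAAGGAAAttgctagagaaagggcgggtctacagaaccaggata
Ifih1, chr2:62646206-62646233, minus strand: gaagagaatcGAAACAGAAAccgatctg

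**Figure D5:**
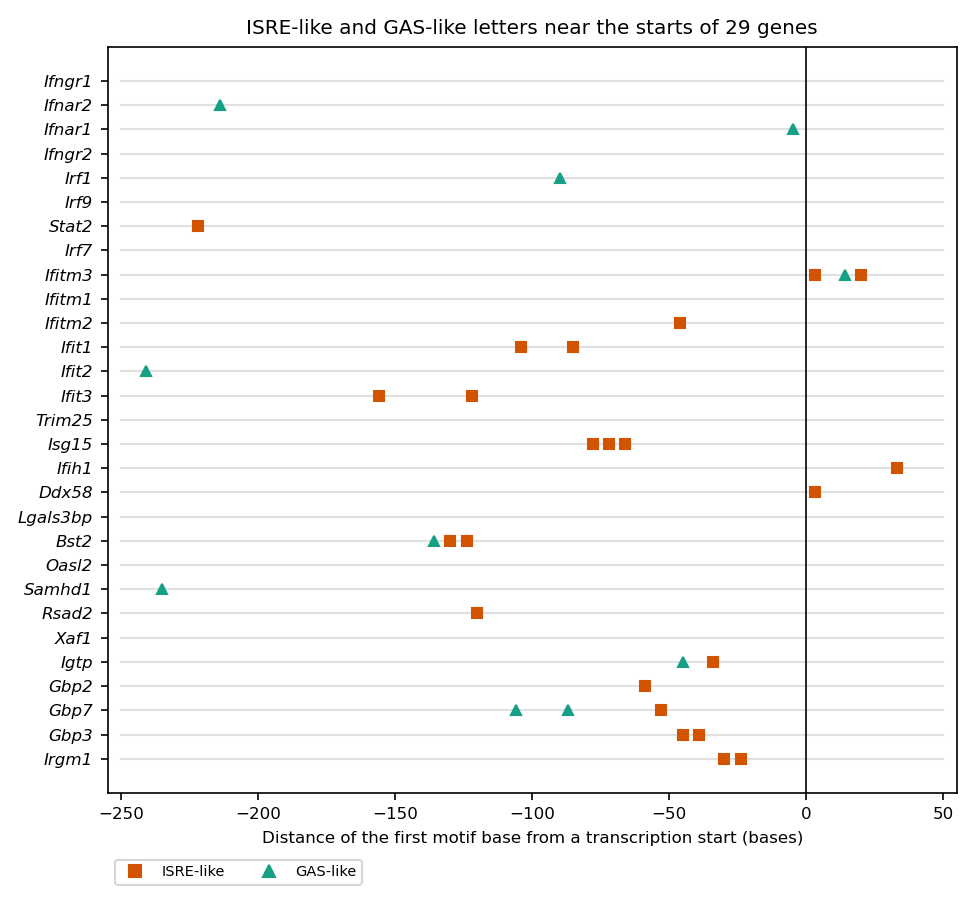
Position of ISRE-like (squares) and GAS-like (triangles) letters relative to the transcription starts of the 29 genes with a promoter window, in bases, genes ordered by role. The 5 GTPases at the bottom have ISRE-like letters within 59 bases before a start, in 5 of their 6 windows. The 4 receptor genes at the top have no ISRE-like letters, with GAS-like letters in Ifnar1 and Ifnar2.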

How the data were processed

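The authors deposited raw counts per gene symbol and library, and a table of log2 values. The deposited log2 values equalled log2 of the count divided by 1 size factor per library, plus 1. The submitters' processing notes name STAR 2.4, DESeq2 1.22.2, bcl2fastq 2.18 and build mm10; the counter, annotation and strand use are not given in the sources used here. Per the labels' protocols, cDNA was made by Smart-seq2 with 18 PCR cycles, without molecular identifiers. The floors therefore cover counting error only, while the intervals rest on the spread between these libraries.

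Groups were compared with edgeR 4.0.16 (quasi-likelihood, filterByExpr, TMM, robust) in R 4.3.3 over 12203 genes, with Benjamini-Hochberg adjustment and a threshold of 0.05. SE is the absolute log2 fold change over the root of F, and 95% intervals use the moderated degrees of freedom. Alternatives were DESeq2 1.42.0, limma 3.58.1 (voom, and trend on the deposited values), a replicate block, RLE factors, no filter, no Rn45s, genes detected as covariate and each library left out. One alternative added after the data were seen left out both libraries numbered 4. Fits were tested on simulated data. Exonic lengths and positions came from GENCODE vM21 (GRCm38), which may differ from the authors' annotation. The genes and lists were chosen with earlier results of these data known. Named in full are the receptors, the 4 factors, the 5 genes of highest mean CPM and the 6 of smallest p, and of the other list up to 5 per direction with an unadjusted p under 0.05; further genes were named after their values were seen. Rn45s, a ribosomal RNA precursor, held 27.9 to 42.4% of each library's counts and stayed in the library size. One marker list and one gene of the further pathway list are not reported here.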

Additional observations from a re-analysis of the deposited data

Results flagged for a closer look

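Within each group of 5 libraries, the gap of the highest or lowest library of each of the 35 genes was compared with Dixon's 95% critical value, on log2 CPM. Of 70 groups 7 exceeded it, where 3.5 are expected by chance for independent genes with normal values. The share over all tested genes was not computed, so the count is not read as a trait of these genes. Ifngr1 was lowest in NEO1+ library 4, at 6.83 against 7.20 to 7.25 in the others, and highest in NEO1- library 3, at 7.64 against 6.57 to 6.87. Ifngr2 was lowest in NEO1- library 3, at 3.998 against 4.71 to 4.96. Gbp3 was lowest in the same library, at 4.93 against 6.06 to 6.27, so that 3 of the 7 gaps belonged to NEO1- library 3. That library was also the highest of all libraries for 15.4% of all tested genes and the lowest for 17.0%. Ifit2 was highest in NEO1- library 1, at 5.49 against 4.14 to 4.49, and Dhx58 was lowest there, at 2.32 against 4.99 to 5.67. Of all tested genes, 17.4% were highest and 22.1% lowest in NEO1- library 1. Ddx58 was highest in NEO1+ library 4, at 5.89 against 5.41 to 5.52.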

How the results depend on the processing

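Of the 35 interferon genes, 0 passed the adjusted threshold in edgeR with the replicate block, under the other edgeR and limma alternatives and without any 1 library (0 to 0). DESeq2 called 1 (Ifih1), and DESeq2 with the replicate block called 2 (Ifih1, adjusted p 0.00633, and Lgals3bp, 0.0112), where it called 5.69% of all genes (4.43% higher in NEO1+). Of the other pathway genes, DESeq2 called 0, and with the replicate block 3 (Oasl1 and Slfn8 higher, Parp9 lower), while the edgeR and limma settings gave 0. The replicate numbers were not taken as pairs, since the labels state no pairing. Same-numbered libraries deviated together with correlations of 0.00 to 0.04 over 12203 genes, against a mean of -0.0042 for other numbers. Of 10 libraries, 4 correlated best with their own number. These values cannot tell whether same-numbered libraries shared mice or a sort. Among the 35 genes, 12 had the same sign under all 20 alternatives (Ifih1, Lgals3bp, the 3 Ifitm genes, Ifnar1, Ifngr1, Ifit1, Samhd1, Xaf1, Gbp2 and Gbp7), and 23 had another sign under 1 or more, none of them past the threshold. The median log2 fold change of all genes was 0.01, and 0.12 with limma-voom and 0.11 with limma-trend. The median level of the 35 genes within a library, averaged over the 10 libraries, was 59.4 CPM, and 92.3 CPM without Rn45s in the library size, by construction. Genes under a few CPM, such as Mx1, are limited by depth and by the few cells of each library.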
